A study of Mus musculus with 7 samples.

Results

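The 10 genes described here encode early response factors of 3 related kinds: the early growth response factors Egr1, Egr2 and Egr3 with the EGR corepressor Nab2, the immediate early response genes Ier2 and Ier3, and the Kruppel-like factors Klf2, Klf4, Klf6 and Klf10. They were picked by symbol, as a list drawn up with earlier results of these data known, from 18193 genes that had a probe set carrying a single symbol, and all 10 were measured. A gene is represented by its brightest probe set over the 7 arrays. Of the 10 genes 6 had 1 probe set, and the other probe sets of the rest are given beside the results.

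The cells were mouse macrophages grown from bone marrow, hybridised to Affymetrix arrays, with 1 array per group. Each culture was held for 24 h in a first period and for 3 h in a second. The groups are named by the first and the second period: Pam3CSK4-then-MDP, Pam3CSK4-then-Pam3CSK4, MDP-then-MDP, MDP-then-Pam3CSK4, naive MDP, naive Pam3CSK4 and naive unstimulated, where naive means that the first 24 h were without ligand. Pam3CSK4 is a synthetic bacterial lipopeptide that activates the Tlr2 receptor, and MDP, muramyl dipeptide, is a peptidoglycan fragment that activates the cytosolic receptor Nod2. The labels give the doses as 10 mg/ml MDP and 1 mg/ml Pam3CSK4 in either period; whether milligrams stand there for micrograms could not be checked. They give neither the strain, sex nor age of the mice, and no group was pretreated and then left without a second ligand, so a lost response and a shifted resting level cannot be told apart. With 1 array per group every difference below is between 2 arrays, precision is limited by their small number, and no test across replicates was possible.

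EGR proteins carry zinc fingers that bind GC-rich DNA, and their genes are switched on within minutes of a stimulus by the ERK kinase pathway acting through serum response factor (SRF) and its ternary complex partners. Nab2 is itself induced by EGR proteins and holds them back. Kruppel-like factors share a zinc finger module that binds GC and CACCC boxes; in monocytes and macrophages Klf2 restrains inflammatory activation, Klf4 cooperates with Stat6 in alternative activation, and Klf6 promotes inflammatory gene expression. Messenger RNAs of this class peak early and decay fast, and these arrays sample them at 3 h alone.

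Values are log2 expression, a difference is the first named array minus the second on that scale, and folds are the same differences on the linear scale. Levels are compared between arrays for 1 gene and not between genes. Array medians lay between 5.48 and 5.55. Anything under the median was treated as background: its difference was measured from the median instead, which gives only a bound ("at least"). Induction was read at 3-fold over unstimulated cells and other differences at 2-fold, the thresholds of the study's design text for induced genes and for genes lower in tolerant cells.

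All 9 measured macrophage markers, among them Csf1r, Adgre1 and Lyz2, lay above the array median on all arrays, with list means from 12.68 to 13.20. Single markers moved more. Itgam stood at 11.72 on both Pam3CSK4-pretreated arrays against 10.28 to 10.65 elsewhere, and Fcgr1 at 13.43 and 13.51 against 12.16 to 12.91. Csf1r, Cd68 and Lamp2 were slightly lower there than elsewhere. Mertk ran from 7.60 in naive Pam3CSK4 to 9.89 in naive unstimulated cells. Of the neutrophil genes, Mpo lay below the array median on all arrays and 6 of 7 above it on all. S100a8 stood at 12.15 in Pam3CSK4-then-MDP and 12.13 in Pam3CSK4-then-Pam3CSK4 cells, against 10.98 to 11.34 elsewhere. Ltf went the other way, at 6.88 and 6.41 against 7.57 to 8.15. Of the T and NK cell genes, Cd3g and Ncr1 lay below the array median on all arrays and 3 of 6 above it on all. Of the B cell genes, Ms4a1 lay below it on all arrays and 3 of 5 above it on all, among them Ighm at 7.87 in Pam3CSK4-then-MDP and 7.73 in Pam3CSK4-then-Pam3CSK4 cells, against 8.49 and 8.54 after MDP and 10.42 to 10.50 in naive cells. Of the endothelial genes, Pecam1 and Tek lay below it on all arrays and 2 of 5 above it on all, with Vwf at 7.58 in Pam3CSK4-then-MDP and 7.77 in Pam3CSK4-then-Pam3CSK4 cells, against 8.52 to 9.42 elsewhere. List means of the other cell types ranged from 8.44 to 8.84 for 7 neutrophil genes, 5.74 to 5.90 for 6 T and NK genes, 6.36 to 6.81 for 5 B cell genes, 5.23 to 5.36 for 5 dendritic genes, 4.46 to 4.63 for 3 mast and erythroid genes and 5.77 to 6.21 for 5 endothelial genes. The mean of 6 stromal genes was 5.72 in Pam3CSK4-then-MDP and 5.62 in Pam3CSK4-then-Pam3CSK4 cells, against 5.23 to 5.32 on the other arrays, with decorin, Dcn, at 8.34 and 8.03 against 6.28 to 6.69. The 3 control probe sets for small-subunit ribosomal RNA lay, by their median, 1.70 above the unstimulated array on the Pam3CSK4-then-Pam3CSK4 array and 0.28 to 0.48 above it on the other stimulated arrays. The part of these marker and ribosomal differences in the results below was not tested. In bulk cultures fewer expressing cells and less RNA per cell cannot be told apart.

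Across the 7 arrays 6 of the 10 genes spanned at least 2-fold, against 10.6% of all genes, and the median span was 1.06 against 0.39 over all genes. Egr2 had the widest span (at least 3.68), followed by Ier3 (2.06), Ier2 (1.97), Klf2 (1.38), Klf4 (1.08) and Nab2 (1.03). Klf10 (0.93), Egr1 (0.89), Klf6 (0.83) and Egr3 (0.47) stayed within 2-fold. The plot of all 10 genes by array shows 3 arrangements. Egr2, Ier2, Nab2, Egr1 and Klf10 were lowest on the Pam3CSK4-pretreated arrays, Klf10 only narrowly, at 9.87 in Pam3CSK4-then-Pam3CSK4 against 9.88 in MDP-then-Pam3CSK4 cells. Klf2 was highest on the Pam3CSK4-pretreated arrays. Ier3 and Klf6 were above unstimulated on those arrays and on both other arrays given Pam3CSK4. Klf4 and Egr3 followed none of these.

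**Figure D1:**
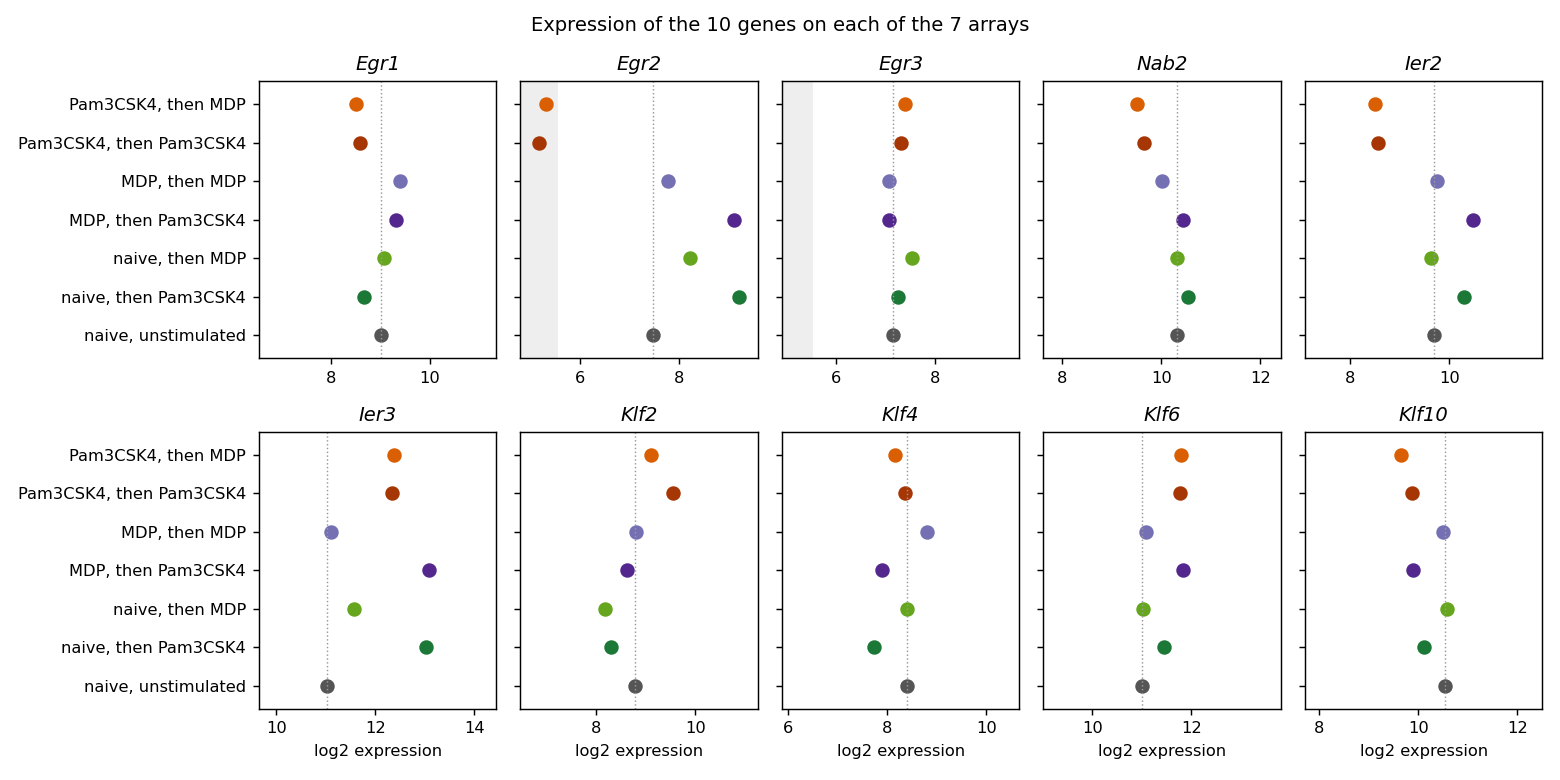
Log2 expression (x axis) of each of the 10 genes on the 7 arrays (rows, 1 point per array), with the dotted line at the naive unstimulated value and grey where values lie below the array medians. Egr2 spans at least 3.68 and falls into the grey range on both Pam3CSK4-pretreated arrays, while Egr3 spans 0.47.

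Egr2 was the member that differed most between the arrays. It stood at 5.31 in Pam3CSK4-then-MDP and 5.17 in Pam3CSK4-then-Pam3CSK4 cells, both below the array median, at 7.76 in MDP-then-MDP and 9.11 in MDP-then-Pam3CSK4 cells, and at 8.20 in naive MDP, 9.20 in naive Pam3CSK4 and 7.47 in naive unstimulated cells. The Pam3CSK4-pretreated arrays were thus lower than the 5 others, unstimulated cells included, and the arrays given Pam3CSK4 without having seen it before were the highest. Against naive cells given the same ligand, Egr2 was at least 12.7-fold lower after 2 exposures to Pam3CSK4 and at least 6.40-fold lower in Pam3CSK4-then-MDP cells. Against unstimulated cells Egr2 was at least 3.82-fold lower in Pam3CSK4-then-Pam3CSK4 and at least 3.85-fold lower in Pam3CSK4-then-MDP cells. Its other probe set gave bounds of at least 8.78-fold and 5.19-fold lower against naive cells given Pam3CSK4 and MDP. In MDP-pretreated cells the response to Pam3CSK4 was near the naive one, with Egr2 3.11-fold over unstimulated cells, against 3.32-fold in naive Pam3CSK4 cells. The difference between these arrays was -0.09, or 0.20 by the other probe set. In MDP-then-MDP against naive MDP cells Egr2 was at -0.44, or -0.83 by the other probe set.

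Ier2, a nuclear protein gene of the immediate early class, was like Egr2 lowest after Pam3CSK4 pretreatment, at a smaller scale. After MDP pretreatment Egr2 was lower than in naive cells with MDP second, and with Pam3CSK4 second its sign depended on the probe set. Ier2 was slightly higher in MDP-pretreated than in naive cells with either second ligand. It stood at 8.49 in Pam3CSK4-then-MDP, 8.57 in Pam3CSK4-then-Pam3CSK4, 9.75 in MDP-then-MDP, 10.47 in MDP-then-Pam3CSK4, 9.64 in naive MDP, 10.30 in naive Pam3CSK4 and 9.70 in naive unstimulated cells. Pam3CSK4-pretreated cells were the lowest whichever ligand came second. Ier2 was 3.33-fold lower in Pam3CSK4-then-Pam3CSK4 than in naive Pam3CSK4 cells, 2.21-fold lower in Pam3CSK4-then-MDP than in naive MDP cells, and 2.19-fold and 2.30-fold lower than in unstimulated cells. In naive Pam3CSK4 cells Ier2 was 0.61 above unstimulated cells, short of 2-fold.

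Ier3, also called IEX-1, is a target of NF-kB that modulates cell survival, and it did not share this pattern. Its values were 12.37 in Pam3CSK4-then-MDP, 12.33 in Pam3CSK4-then-Pam3CSK4, 11.11 in MDP-then-MDP, 13.08 in MDP-then-Pam3CSK4, 11.57 in naive MDP, 13.03 in naive Pam3CSK4 and 11.02 in naive unstimulated cells. Both Pam3CSK4-pretreated arrays lay between the unstimulated array and the arrays given Pam3CSK4 for the first time. Relative to unstimulated cells Ier3 was 2.48-fold higher in Pam3CSK4-then-Pam3CSK4 and 2.55-fold higher in Pam3CSK4-then-MDP cells, against 4.03-fold in naive Pam3CSK4 cells. The difference from naive cells given the same ligand was -0.70 with Pam3CSK4 as the second ligand and 0.81 with MDP. After MDP pretreatment a second MDP left Ier3 at 0.09 over unstimulated cells, against 0.54 in naive MDP cells.

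Klf2 was the 1 of the 4 Kruppel-like factors described here that was past 2-fold between pretreated and naive cells. It stood at 9.10 in Pam3CSK4-then-MDP, 9.55 in Pam3CSK4-then-Pam3CSK4, 8.79 in MDP-then-MDP, 8.62 in MDP-then-Pam3CSK4, 8.18 in naive MDP, 8.29 in naive Pam3CSK4 and 8.77 in naive unstimulated cells. The Pam3CSK4-pretreated arrays, lowest for Egr2 and Ier2, were the highest for Klf2, and the naive stimulated arrays were its lowest. Klf2 was 2.4-fold higher in Pam3CSK4-then-Pam3CSK4 than in naive Pam3CSK4 cells and 1.89-fold higher in Pam3CSK4-then-MDP than in naive MDP cells, the second short of 2-fold. Against unstimulated cells these arrays were at 0.78 and 0.32, and naive cells were at -0.60 with MDP and -0.48 with Pam3CSK4, all within 2-fold.

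The promoters of Egr2, Ier3 and Klf2 are shown because these genes took 3 different courses after Pam3CSK4 pretreatment: below background, held above unstimulated, and highest of all arrays. The sequences are RefSeq windows of the GRCm38.p6 build on the plus strand, running from 250 bases before to 50 bases after an annotated start, at chr10:67537619-67537918 for Egr2, chr17:35821463-35821762 for Ier3 and chr8:72318812-72319111 for Klf2. Capitals mark, in Egr2, a CArG box (the SRF site, CC and GG around 6 bases of A or T) and 2 copies of the cAMP response element core TGACG on either strand; in Ier3, an NF-kB site; and in Klf2, a MEF2 site.
Egr2: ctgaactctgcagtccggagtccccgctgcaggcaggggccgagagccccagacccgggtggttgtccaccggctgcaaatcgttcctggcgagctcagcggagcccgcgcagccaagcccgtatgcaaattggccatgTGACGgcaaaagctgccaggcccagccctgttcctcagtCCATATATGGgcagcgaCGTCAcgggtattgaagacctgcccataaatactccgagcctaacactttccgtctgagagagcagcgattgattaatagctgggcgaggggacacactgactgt
Ier3: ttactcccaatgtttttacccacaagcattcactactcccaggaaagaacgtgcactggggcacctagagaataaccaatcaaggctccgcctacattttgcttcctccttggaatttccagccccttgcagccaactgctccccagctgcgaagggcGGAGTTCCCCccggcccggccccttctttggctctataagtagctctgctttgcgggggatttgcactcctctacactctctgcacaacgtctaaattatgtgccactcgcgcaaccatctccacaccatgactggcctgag
Klf2: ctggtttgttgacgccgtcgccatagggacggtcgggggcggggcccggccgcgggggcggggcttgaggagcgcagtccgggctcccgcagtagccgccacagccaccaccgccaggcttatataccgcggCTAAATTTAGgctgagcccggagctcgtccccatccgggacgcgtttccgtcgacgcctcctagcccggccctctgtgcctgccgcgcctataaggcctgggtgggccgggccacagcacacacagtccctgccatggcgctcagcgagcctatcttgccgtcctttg

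In the Egr2 window the CArG box lay at -72 to -63 from the start, between TGACG cores at -111 to -107 and -55 to -51. RefSeq gave 5 windows for Egr2, 4 of which held a CArG box, and 3 of these overlap and share this one. Ier3 had its NF-kB match at -92 to -83, overlapping a GC box (GGGCGG) at -96 to -91, and Klf2 its MEF2 match at -118 to -109, beside a TGACG core at -241 to -237, 2 GC boxes and 1 CACCC box. Over 32851 windows of the same length, 1.63% held a CArG box, 20.8% TGACG, 8.46% an NF-kB site, 0.557% a MEF2 site, 35.7% a GC box and 57.5% CACCC, both strands counted. A further Egr2 window, the one farthest upstream, held NF-kB matches, and the windows of Nab2, Klf4 and Klf6 held no match to the CArG, NF-kB or MEF2 letters. Neither the palindromic element TGACGTCA (1.79% of windows) nor TATAAA (13.6%) was in a window of these genes, and an EGR site (3.47%) was in those of Klf2 and Klf4, overlapping a GC box in both. Windows were searched for 6 of the 10 genes. The selection for the 10 genes left out 1 chromosome, which was not left out of the 32851 windows. Any of the 10 genes on that chromosome had its windows left out of the search. Egr1, Egr3, Ier2 and Klf10 had no window searched, for this reason or for lack of a window. Whether they hold these motifs was therefore not tested, and a CArG box in Egr2 alone describes only the genes searched. A match describes letters and does not show binding, and the MEF2 search was added after the values were seen.

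**Figure D2:**
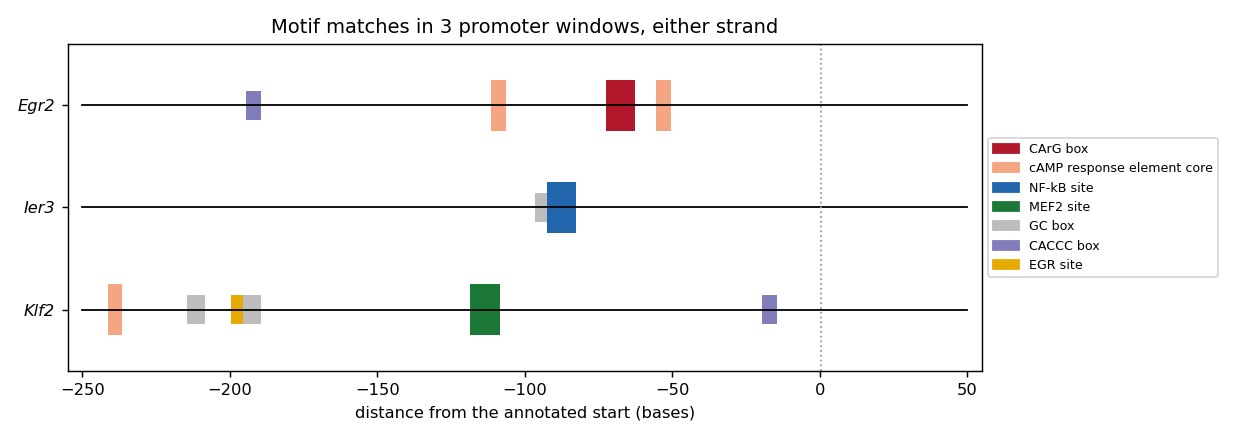
Motif matches on either strand along the promoter windows of Egr2, Ier3 and Klf2 (rows), by distance in bases from the annotated start (x axis, dotted line at the start). Tall boxes are the CArG, NF-kB, MEF2 and TGACG matches and short boxes the GC, CACCC and EGR matches; the CArG box of Egr2 lies at -72 to -63, and overlapping matches are drawn over each other.

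Among the remaining EGR members, Egr1, the prototype of the family, stayed within 2-fold throughout. Its values were 8.5 in Pam3CSK4-then-MDP, 8.58 in Pam3CSK4-then-Pam3CSK4, 9.39 in MDP-then-MDP, 9.32 in MDP-then-Pam3CSK4, 9.06 in naive MDP, 8.68 in naive Pam3CSK4 and 9.01 in naive unstimulated cells. The MDP-pretreated arrays were the highest and the Pam3CSK4-pretreated arrays the lowest, and MDP-then-Pam3CSK4 lay 0.64 above naive Pam3CSK4. Nab2 was at 9.5 in Pam3CSK4-then-MDP, 9.64 in Pam3CSK4-then-Pam3CSK4, 10.02 in MDP-then-MDP, 10.44 in MDP-then-Pam3CSK4, 10.31 in naive MDP, 10.53 in naive Pam3CSK4 and 10.32 in naive unstimulated cells. Pam3CSK4-pretreated cells were again lowest, at -0.89 from naive cells with Pam3CSK4 as the second ligand and -0.81 with MDP, short of 2-fold.

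For Egr3 the answer depended on the probe set. The brighter one ran from 7.08 to 7.54 over the 7 arrays with no difference past 2-fold. The dimmer one stood at 4.95 in Pam3CSK4-then-MDP and 5.27 in Pam3CSK4-then-Pam3CSK4 cells, both below the array median, at 6.93 in MDP-then-MDP, 6.12 in MDP-then-Pam3CSK4, 6.11 in naive MDP and 5.69 in naive Pam3CSK4, and at 6.78 in naive unstimulated cells. It was therefore at least 2.36-fold lower in Pam3CSK4-then-Pam3CSK4 and at least 2.38-fold lower in Pam3CSK4-then-MDP than in unstimulated cells, and 2.12-fold lower in naive Pam3CSK4 cells. With the mean of both probe sets the differences of the pretreated arrays from unstimulated were -0.67 and -0.80. Which of the probe sets tracks the Egr3 transcript was not tested. The probe sets of Egr2, of Klf4 and of Klf6 ran closer together than those of Egr3, as the plot by probe set shows.

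**Figure D3:**
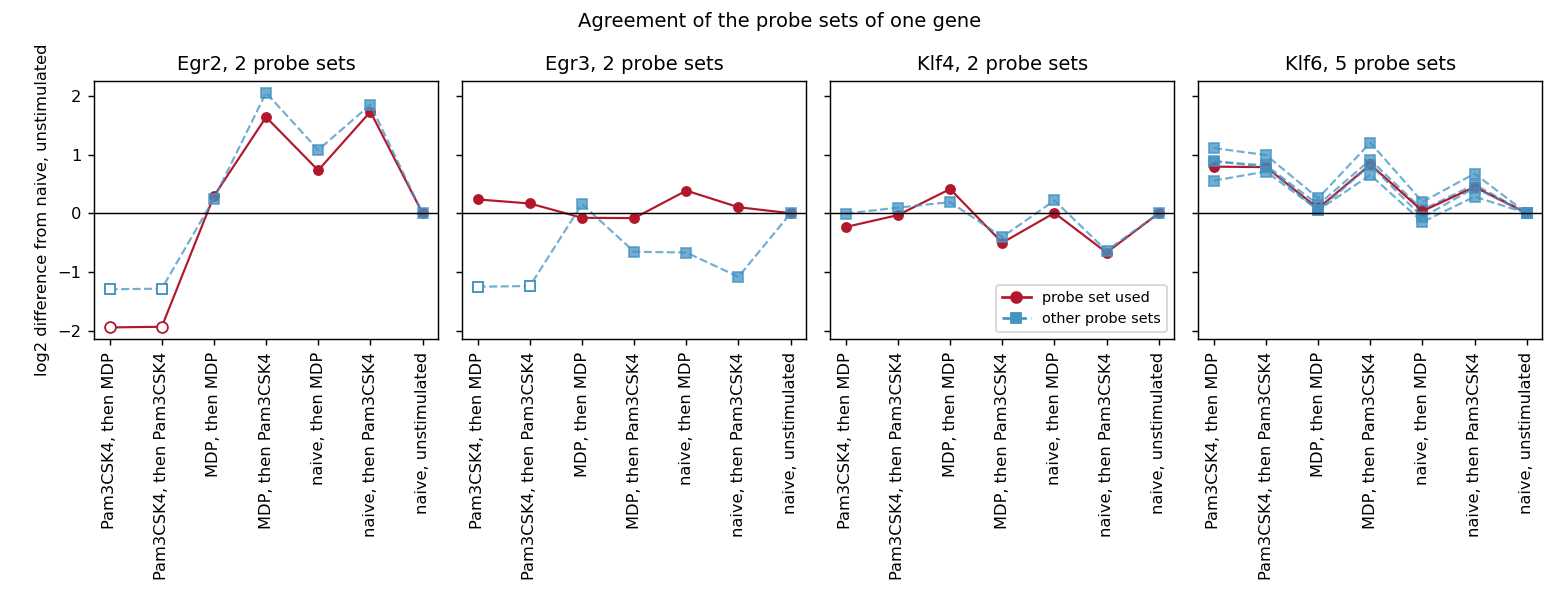
Log2 difference from the naive unstimulated array (y axis) on each array (x axis) for the genes with several probe sets, the probe set used in red and the others in blue. Values below the array median are drawn at it as open symbols. The probe sets of Egr2, Klf4 and Klf6 follow each other more closely than those of Egr3, which part. On the Pam3CSK4-pretreated arrays the one used is at 0.24 and 0.17, against bounds of -1.25 and -1.24 for the other. The one used and the other are also at 0.39 and -0.67 in naive MDP cells, and at 0.10 and -1.08 in naive Pam3CSK4 cells.

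Klf6 stood at 11.79 in Pam3CSK4-then-MDP, 11.78 in Pam3CSK4-then-Pam3CSK4, 11.08 in MDP-then-MDP, 11.82 in MDP-then-Pam3CSK4, 11.03 in naive MDP, 11.44 in naive Pam3CSK4 and 10.99 in naive unstimulated cells. The arrays with a pretreatment and Pam3CSK4 in either period were the highest. Over unstimulated cells Klf6 was 1.73-fold higher in Pam3CSK4-then-MDP, 1.72-fold higher in Pam3CSK4-then-Pam3CSK4 and 1.78-fold higher in MDP-then-Pam3CSK4 cells, all short of 2-fold. Of its 4 other probe sets, 1 was past 2-fold over unstimulated in Pam3CSK4-then-MDP (1.11) and MDP-then-Pam3CSK4 cells (1.2).

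Klf4 was at 8.17 in Pam3CSK4-then-MDP, 8.37 in Pam3CSK4-then-Pam3CSK4, 8.81 in MDP-then-MDP, 7.90 in MDP-then-Pam3CSK4, 8.41 in naive MDP, 7.73 in naive Pam3CSK4 and 8.40 in naive unstimulated cells. It was lowest in cells given Pam3CSK4 without earlier Pam3CSK4, at -0.67 from unstimulated in naive cells, and Pam3CSK4-then-Pam3CSK4 cells were at -0.03. By its other probe set these were -0.64 and 0.10. In MDP-then-MDP against naive MDP cells the probe set used was at 0.41 and the other at -0.03. Klf10, first described as a gene induced by transforming growth factor beta, was at 9.64 in Pam3CSK4-then-MDP, 9.87 in Pam3CSK4-then-Pam3CSK4, 10.50 in MDP-then-MDP, 9.88 in MDP-then-Pam3CSK4, 10.57 in naive MDP, 10.11 in naive Pam3CSK4 and 10.53 in naive unstimulated cells. The 4 arrays with Pam3CSK4 in either period were all below the 3 without it, by up to 0.93 between Pam3CSK4-then-MDP and naive MDP, short of 2-fold.

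Read by comparison, few of these genes stood apart after a first exposure. In naive MDP cells 0 of the 10 were 3-fold over unstimulated, where 0.22% of all genes were, and Egr2 was the highest at 0.73, or 1.08 by its other probe set. In naive Pam3CSK4 cells 2 of the 10 were, Ier3 at 2.01 and Egr2 at 1.73, where 1.28% of all genes were, and 0 were 3-fold lower, where 0.605% of all genes were. Set directly against each other, naive Pam3CSK4 exceeded naive MDP 2-fold in 1 of the 10 genes, Ier3 at 1.47, where 1.4% of all genes did. Egr2 lay just under that line, at 0.9996 by the deposited values. The medians of the 10 genes were 0.04, 0.16 and 0.17 in these comparisons, and those of all genes 0.00, 0.00 and -0.03.

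MDP pretreatment left the 10 genes within 2-fold of naive cells. In MDP-then-MDP against naive MDP cells 0 of the 10 were past 2-fold in either direction, where 0.676% of all genes were, with differences from -0.46 for Egr3 to 0.62 for Klf2 and a median of -0.01, as over all genes. The other probe set of Egr3 was at 0.83 in this comparison, of the opposite sign. In MDP-then-Pam3CSK4 against naive Pam3CSK4 cells 0 of the 10 were past 2-fold, where 0.319% of all genes were. Differences there ran from -0.22 for Klf10 to 0.64 for Egr1. Against unstimulated cells, 0 of the 10 were past 2-fold in MDP-then-MDP cells, where 0.429% of all genes were, and 2 were 2-fold higher in MDP-then-Pam3CSK4 cells, Ier3 at 2.06 and Egr2 at 1.64, where 3.03% of all genes were.

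After Pam3CSK4 pretreatment the same pair, Egr2 and Ier2, lay past 2-fold on the lower side with either second ligand. In Pam3CSK4-then-Pam3CSK4 against naive Pam3CSK4 cells this was 2 of the 10, where 2.3% of all genes were 2-fold lower, and 1 of the 10, Klf2, was 2-fold higher, where 2.41% were. In Pam3CSK4-then-MDP against naive MDP cells it was 2 of the 10, where 1.71% of all genes were 2-fold lower, and 0 were 2-fold higher, where 2.14% were. The medians of the 10 genes were -0.16 and -0.40, against 0.01 and -0.0046 over all genes. Against unstimulated cells 2 of the 10 were 2-fold lower and 1, Ier3, was 2-fold higher on either array. The shares of all genes were 2.29% lower and 2.66% higher for Pam3CSK4-then-Pam3CSK4, and 2.59% lower and 2.78% higher for Pam3CSK4-then-MDP. These comparisons share the unstimulated array, and the genes were chosen with earlier results of these data known, so the counts describe the arrays.

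**Figure D4:**
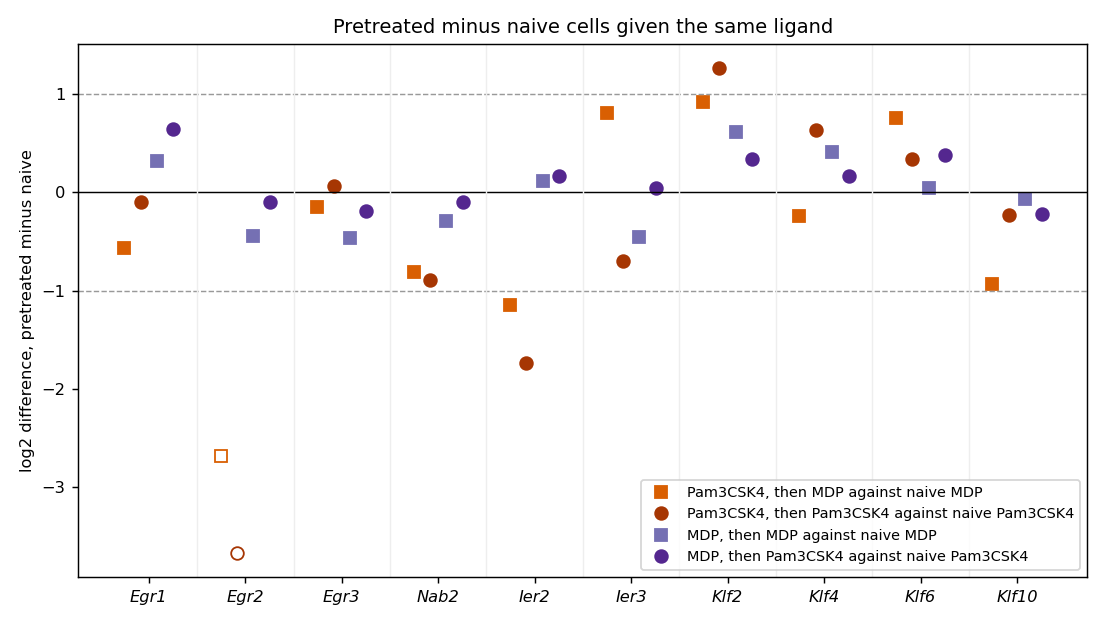
Log2 difference of pretreated minus naive cells given the same second ligand (y axis) for each gene (x axis), 1 point per comparison, with dashed lines at 2-fold and open symbols where a value below the array median leaves only a bound. Egr2 and Ier2 lie below the lower line after Pam3CSK4 pretreatment with either second ligand, Klf2 lies above the upper line with Pam3CSK4, and all points after MDP pretreatment lie between the lines.

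In Pam3CSK4-pretreated cells no difference by second ligand was past 2-fold among the genes where it could be measured. Egr2 was below the array median on both arrays, which allows no difference. Pam3CSK4-then-Pam3CSK4 minus Pam3CSK4-then-MDP was 0.07 for Ier2, -0.04 for Ier3 and -0.01 for Klf6, and was largest for Klf2 at 0.46. MDP-then-Pam3CSK4 minus MDP-then-MDP was 1.35 for Egr2, 0.72 for Ier2, 1.97 for Ier3, 0.75 for Klf6 and -0.92 for Klf4. The gap between ligands in naive cells was 1.00 for Egr2, 0.67 for Ier2, 1.47 for Ier3, 0.41 for Klf6 and -0.68 for Klf4. After MDP pretreatment the gap was 0.42 for Nab2, -0.62 for Klf10, -0.17 for Klf2, -0.07 for Egr1 and -0.01 for Egr3. In naive cells these genes were at 0.22, -0.47, 0.11, -0.38 and -0.28. Past 2-fold were Ier3 in both settings and Egr2 after MDP pretreatment, with Egr2 in naive cells just under it. Whether the gap itself differs between pretreatments was not tested.

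The rest of the family and pathway was followed in lists chosen by function. Of 13 other EGR, NAB and KLF genes measured, Klf7 was the 1 past 2-fold after 2 exposures to Pam3CSK4, at 9.03 in Pam3CSK4-then-Pam3CSK4 against 10.31 in naive Pam3CSK4 cells (-1.28), and 0 were 2-fold higher. In Pam3CSK4-then-MDP against naive MDP cells Klf7 was at -0.22. The counts in this comparison stand beside 2.3% of all genes 2-fold lower and 2.41% 2-fold higher. Of 30 other immediate early genes, 7 were 2-fold lower in this comparison and 4 were 2-fold higher. Farthest from 0 were Maff (-2.04), a small Maf factor, Sgk1 (1.81), a kinase gene, Gadd45b (-1.80), a stress sensor, and Zfp36 (-1.40), which destabilises cytokine messenger RNAs. With MDP as the second ligand, against naive MDP cells, Maff was again lower (-1.71), while Gadd45b (0.13) and Zfp36 (0.44) were not, and Sgk1 was at 1.003. The list median was -0.03, and 5 of the 30 were 3-fold over unstimulated in naive Pam3CSK4 cells, led by Gadd45b (3.11) and Pim1 (2.69), while 1, Rgs1 (-1.78), was 3-fold lower, where 1.28% of all genes were 3-fold higher and 0.605% lower. In Pam3CSK4-then-MDP against naive MDP cells 5 of the 30 were 2-fold lower, among them the AP-1 subunit gene Fosl2 (-1.2) and Zfp36l1 (-1.17), and 3 were 2-fold higher, led by the kinase gene Pim1 (1.11), where 1.71% of all genes were lower and 2.14% higher.

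The ERK pathway itself showed no common direction. Of 13 ERK phosphatases and feedback inhibitors, Dusp2 (-3.31) and Dusp5 (-1.67) were 2-fold lower in Pam3CSK4-then-Pam3CSK4 than in naive Pam3CSK4 cells and Dusp6 (2.07) was 2-fold higher, where 2.3% of all genes were lower and 2.41% higher. Dusp6 stood at 12.10 in naive unstimulated, 8.82 in naive Pam3CSK4 and 10.89 in Pam3CSK4-then-Pam3CSK4 cells, and so stayed below unstimulated. Dusp2 stood at 6.90, 10.19 and 6.88 on the same arrays, near its unstimulated level after 2 exposures. In Pam3CSK4-then-MDP against naive MDP cells Dusp2 was at -0.13 and Dusp6 at -0.81. Dusp5, a nuclear ERK phosphatase, was also lower in Pam3CSK4-then-MDP than in naive MDP cells (-1.52). Srf was at 9.15 in Pam3CSK4-then-MDP, 8.92 in Pam3CSK4-then-Pam3CSK4, 8.79 in naive MDP, 9.09 in naive Pam3CSK4 and 8.74 in naive unstimulated cells, and 0 of 8 SRF, ternary complex, CREB and MEF2 factor genes were past 2-fold after 2 exposures to Pam3CSK4. In Pam3CSK4-then-MDP against naive MDP cells 1 of those 8, Mef2c, was 2-fold lower (-1.15), where 1.71% of all genes were. In naive Pam3CSK4 cells Mef2c was also 3-fold below unstimulated cells (-2.19), where 0.605% of all genes were. Of 8 kinase genes of the pathway, Map3k8, which activates ERK downstream of Toll-like receptors, was the 1 past 2-fold in Pam3CSK4-then-MDP against naive MDP cells, 2.13 higher, where 2.14% of all genes were, and 0 were past it in Pam3CSK4-then-Pam3CSK4 against naive Pam3CSK4 cells. Map3k8 stood at 9.28 to 9.64 on every array with Pam3CSK4 in either period, against 7.45 to 7.68 on the others. The plot of gene lists shows medians between -0.28 and 0.15 in Pam3CSK4-then-Pam3CSK4 against naive Pam3CSK4 cells.

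**Figure D5:**
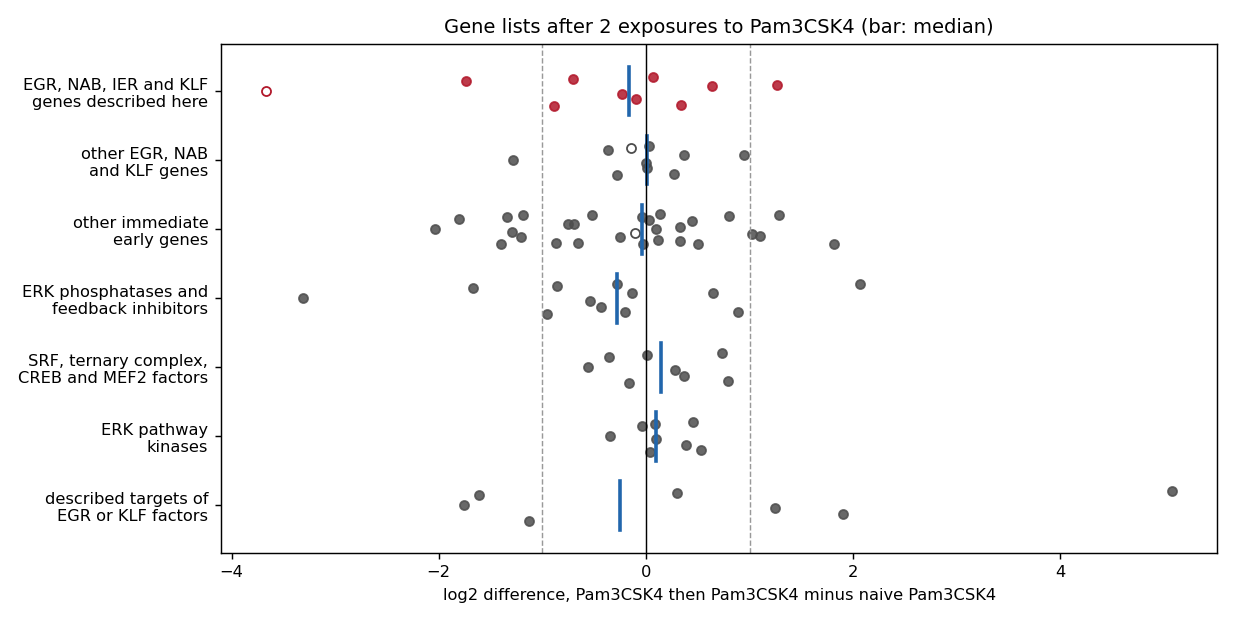
Log2 difference of Pam3CSK4-then-Pam3CSK4 minus naive Pam3CSK4 cells (x axis) for the genes of each list (rows, 1 point per gene, spread vertically for legibility), with the median as a blue bar and dashed lines at 2-fold. Open symbols are bounds, and genes below the array median on both arrays are not drawn. The 10 genes described here are in red, with Egr2 farthest to the left at a bound of -3.67, and Arg1 in the lowest row lies farthest to the right at 5.08.

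Genes described elsewhere as targets of these factors differed in both directions. Of the 8 measured, 3 were 2-fold higher in Pam3CSK4-then-Pam3CSK4 than in naive Pam3CSK4 cells, among them Arg1 (5.08), the arginase that Klf4 and Stat6 induce in alternative activation, and Thbd (1.90), thrombomodulin, a Klf2 target in endothelial cells. On the lower side were 3 others, among them Icam1 (-1.76), an adhesion molecule gene, and Tnf (-1.61), where 2.3% of all genes were lower and 2.41% higher. With MDP as the second ligand the signs differed for some. In Pam3CSK4-then-MDP against naive MDP cells 2 of the 8 were 2-fold higher, Arg1 (5.34) and Tnf (1.31), where 2.14% of all genes were, and 0 were 2-fold lower. Thbd was at -0.65 and Icam1 at -0.75 in that comparison. In naive Pam3CSK4 cells Thbd was at -3.20 and Tnf at 3.57 from unstimulated. Thbd also stayed below unstimulated in Pam3CSK4-then-Pam3CSK4 (-1.30) and Pam3CSK4-then-MDP cells (-1.45). Arg1 was at 11.13 in Pam3CSK4-then-MDP and 10.90 in Pam3CSK4-then-Pam3CSK4 cells, against 5.79 in naive MDP and 5.82 in naive Pam3CSK4 cells. Whether the factors set the levels of these genes was not tested.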

How the data were processed

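Expression was measured on 7 Affymetrix arrays of mouse bone marrow macrophages, 1 per group and all labelled replicate 2. The authors deposited log2 values per probe set; the submitters' processing notes name RMA and affy, and versions and the arrays normalized together are not given in the sources used here. RMA normalizes between arrays and summarizes probes, so small differences of dim probe sets are compressed. Values ran from 2.95 to 15.1.

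Of 45101 probe sets, 34945 had 1 gene symbol in the platform annotation, giving 18193 genes, each taken at its brightest probe set. Log2 differences were taken between pairs of arrays in 11 comparisons, with thresholds of 3-fold for induction and 2-fold otherwise; counts and medians over lists and over all genes use the deposited differences. There is no p-value, since each group has 1 array. The calculation was tested on simulated data. The members and lists were chosen with earlier results of these data known. All 10 members are named, with at most 4 genes past 2-fold per list and comparison, those farthest from 0; other named genes were chosen after their values were seen. Promoter windows came from RefSeq on GRCm38.p6. Alternatives were centring on array medians or housekeeping genes, the mean of probe sets, dropping probe sets marked as less specific, adding 32 to linear values, requiring the higher array above its median, and other fold thresholds. Python 3.11.15, numpy 2.4.6 and pandas 2.3.3 were used.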

Additional observations from a re-analysis of the deposited data

Results flagged for a closer look

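Ier3 differed from naive cells in opposite directions after Pam3CSK4 pretreatment with either second ligand. It was at -0.70 in Pam3CSK4-then-Pam3CSK4 against naive Pam3CSK4 cells and at 0.81 in Pam3CSK4-then-MDP against naive MDP cells, each more than 1.5-fold and neither past 2-fold. The pretreated values were 12.33 and 12.37, and the naive values 13.03 and 11.57. The difference between these effects was not tested, since each group has 1 array.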

How the results depend on the processing

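Of 77 counts of genes past a threshold recomputed under the alternatives, 70 stayed within 1.5 times the reported count and 7 did not. With 32 added to the linear values, 1 gene in place of 2 was 3-fold over unstimulated in naive Pam3CSK4 cells, Egr2 then being at 1.57. In naive Pam3CSK4 against naive MDP cells, 2 genes were past 2-fold with the arrays centred on their medians and 2 with centring on housekeeping genes, in place of 1, Egr2 then being at 1.003 and 1.04, and 0 were past 3-fold. At 3-fold, 1 gene in place of 2 or 3 was past the threshold in Pam3CSK4-then-MDP against naive MDP, in Pam3CSK4-then-MDP against unstimulated and in Pam3CSK4-then-Pam3CSK4 against unstimulated cells, and that gene was Egr2. Of 550 single differences, 542 moved by less than 1.5-fold and 0 past 2-fold changed sign. The others were Egr2 with 32 added, at -3.19 and -2.19 against naive cells given Pam3CSK4 and MDP and -1.62 and -1.55 against unstimulated, and Egr3 with the mean of its probe sets. No paired analysis was possible because each group has 1 array, and for the same reason no replicate could be left out. Signal over background limits Egr2 and the dimmer Egr3 probe set on the Pam3CSK4-pretreated arrays, where only bounds can be given.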

Other observations

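For each of the 6 genes that spanned at least 2-fold, the 3 genes with the most similar course over the 7 arrays were found among 1906 others that also spanned 2-fold, by the root mean square difference of the profiles after each was set to its own mean. Nearest to Egr2 were the growth factor gene Pdgfa (0.46), the maturation marker Cd83 (0.53) and the chondroitin sulfotransferase gene Chst11 (0.54). Pdgfa stood at 8.84 in Pam3CSK4-then-MDP and 8.86 in Pam3CSK4-then-Pam3CSK4 cells, against 11.14 in naive MDP, 11.72 in naive Pam3CSK4 and 10.94 in naive unstimulated cells. Nearest to Ier2 were Prag1 (0.10), Rnf180 (0.15) and Spsb1 (0.16), and to Ier3 Daam1 (0.14), the TNF receptor adaptor Traf2 (0.14) and the glycolytic regulator Pfkfb3 (0.15). Traf2 was at 9.62 in Pam3CSK4-then-MDP and 9.47 in Pam3CSK4-then-Pam3CSK4 cells, against 8.84 in naive MDP, 9.99 in naive Pam3CSK4 and 8.43 in naive unstimulated cells. Klf2 lay nearest to Ttc8 (0.12), Wdyhv1 (0.12) and Zfp938 (0.13), Klf4 to the transcription factor gene Runx3 (0.10), Stambpl1 (0.11) and Lrrc27 (0.11), and Nab2 to Rbm39 (0.05), Zcchc7 (0.06) and Sla (0.07). Egr2 lay below the array median on 2 of the 7 arrays. With 7 points and many genes compared, such likeness is a description of these arrays.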
